A study of Mus musculus with 12 samples.

Results

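The liver breaks down amino acids along a separate route for each, and 9 genes for enzymes of these routes were followed here: Tat, Tdo2, Sds, Hal, Got1, Hpd, Gls2, Prodh and Aass. They were listed by name as amino acid degrading enzymes, a rule that uses no measured value, and make up 9 of the 54838 genes in the table. The liver removes the amino group of amino acids, sends the nitrogen to the urea cycle and uses the carbon for glucose, ketone bodies or energy. Tyrosine aminotransferase and tryptophan dioxygenase are classic examples of liver enzymes that glucocorticoids increase, and serine dehydratase is likewise known to respond to hormones and diet. Dexamethasone (Dex) is a synthetic glucocorticoid that acts through the glucocorticoid receptor, a transcription factor activated by its ligand.

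Liver RNA was sequenced from 12 C57BL/6J mice in 4 groups of 3 to compare the effects of Dex, of zinc and of both. The drinking water was left plain or held 25 mM ZnSO4 over 7 days, after which all mice received an injection of PBS or of 200 µg Dex, and the liver was taken 2 hours later. The water-PBS group had plain water and PBS, the zinc-PBS group ZnSO4 and PBS, the water-Dex group plain water and Dex, and the zinc-Dex group ZnSO4 and Dex. No group carried a genetic change, and per the study's methods C57BL/6J mice were females bought from a breeder. The design text calls the 3 libraries of a group biological replicates. Each library held 9091152 to 12303527 assigned reads. Levels below are normalized read counts, that is, counts divided by a size factor for each library. A gene was called when its adjusted p in DESeq2 was below 0.05 and its log2 fold change was beyond 0.8 in either direction.

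The tissue label was checked with marker lists. The 5 hepatocyte markers found summed to 1134560 to 1635470 normalized counts per library. Pancreas markers summed to 2.72 to 11.1, and the 5 kidney tubule markers were at 0 in all libraries. Summed Kupffer cell markers lay between 3729 and 5338, cholangiocyte markers between 588 and 1164, gut epithelium markers between 590 and 845 and red blood cell markers between 716 and 1916. The sum of 6 periportal markers, which include the urea cycle genes Cps1, Ass1 and Arg1 and the gluconeogenic gene Pck1, was 96880 to 128556 in PBS livers and 153486 to 203097 in Dex livers. Of these 6, Pck1 alone was called higher with Dex in water mice and in zinc mice, by 1.62 and 2.36 on the log2 scale. The sum of 6 pericentral markers was 92987 to 113937 in PBS livers and 105839 to 142627 in Dex livers, and of these Axin2 was called lower (-1.42 in water and -1.32 in zinc mice). The sum of 5 endothelial markers was 2635 to 2974 in PBS livers and 2946 to 3267 in Dex livers. Of these 5, Lyve1 was called higher (2.53 and 2.81 on the log2 scale) and Kdr lower (-1.14 and -1.26). In zinc-Dex against zinc-PBS the gut epithelium marker Vil1 was also called lower (-2.04) and the red blood cell marker Hba-a1 higher (0.95). The hepatocyte sum was also higher in Dex livers, at 1500270 or more against at most 1346170. The part of these shifts in the results on the 9 enzymes was not tested. In whole tissue, fewer cells of a type and less RNA per cell cannot be told apart.

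The promoters of the enzymes that Dex raised are shown first, because Dex acts on transcription. The RefSeq table (GRCm38.p6) held 7 of the 9 genes, without Sds and Gls2. Each sequence runs 5′ to 3′ on the gene's own strand from 250 bases before to 50 bases after the annotated start, 300 bases in all. The lone capital late in each sequence marks the annotated first transcribed base, and the other capitals mark motif matches. Hal, the enzyme that was lower after Dex in water mice, was added as a contrast after its values were seen. The windows are Tat chr8:109990186-109990485 (plus strand), Tdo2 chr3:81975679-81975978 (minus strand), Got1 chr19:43524556-43524855 (minus strand), Aass chr6:23132937-23133236 (minus strand) and Hal chr10:93488518-93488817 (plus strand).
Tat: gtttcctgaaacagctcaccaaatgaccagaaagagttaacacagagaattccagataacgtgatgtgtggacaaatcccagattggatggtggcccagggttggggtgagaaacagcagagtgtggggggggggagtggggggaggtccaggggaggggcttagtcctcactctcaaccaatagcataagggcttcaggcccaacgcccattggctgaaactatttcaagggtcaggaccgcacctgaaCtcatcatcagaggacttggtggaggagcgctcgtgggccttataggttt
Tdo2: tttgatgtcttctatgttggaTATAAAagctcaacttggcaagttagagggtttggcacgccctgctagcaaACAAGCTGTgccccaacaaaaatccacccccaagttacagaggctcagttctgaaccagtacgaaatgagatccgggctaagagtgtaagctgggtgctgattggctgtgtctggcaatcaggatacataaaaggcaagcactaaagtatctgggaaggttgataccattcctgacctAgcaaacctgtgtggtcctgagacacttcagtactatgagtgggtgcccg
Got1: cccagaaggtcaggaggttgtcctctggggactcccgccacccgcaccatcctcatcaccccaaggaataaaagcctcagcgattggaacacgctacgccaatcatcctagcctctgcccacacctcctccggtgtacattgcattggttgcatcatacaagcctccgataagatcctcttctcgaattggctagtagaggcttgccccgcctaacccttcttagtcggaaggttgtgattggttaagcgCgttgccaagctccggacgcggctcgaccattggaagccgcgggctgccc
Aass: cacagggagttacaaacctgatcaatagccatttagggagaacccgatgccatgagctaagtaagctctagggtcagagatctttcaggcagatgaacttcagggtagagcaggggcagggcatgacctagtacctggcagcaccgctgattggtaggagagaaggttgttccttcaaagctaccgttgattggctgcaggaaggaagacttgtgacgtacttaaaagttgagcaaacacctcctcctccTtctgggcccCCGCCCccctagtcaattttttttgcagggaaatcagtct
Hal: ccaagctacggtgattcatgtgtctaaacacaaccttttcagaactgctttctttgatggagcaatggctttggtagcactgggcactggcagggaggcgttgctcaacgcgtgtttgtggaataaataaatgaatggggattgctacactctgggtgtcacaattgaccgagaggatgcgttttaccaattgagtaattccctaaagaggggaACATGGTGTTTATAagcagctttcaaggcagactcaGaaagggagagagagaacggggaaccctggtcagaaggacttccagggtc

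In these windows 7 motifs were searched on both strands, 5 at first and TATAAA and GGGCGG after the first matches were seen. Positions refer to the start in the RefSeq table. For Tdo2 and Prodh this start lies inside the gene span of GENCODE M21, so both windows fall within the annotated gene. The core of the glucocorticoid response element, ACANNNTGT, was found in Tdo2, 178 bases before the start, and in Hal, 36 bases before the start. It was found in 6.85% of the 32851 promoter windows of the table. TATAAA was found in Tdo2 at 229 and in Hal at 28 bases before the start, where in Hal it overlaps the ACANNNTGT match by its outermost base, and was found in 13.6% of windows. GGGCGG was found in Aass 11 bases after the start and in Hpd 55 bases before it, and in 35.7% of windows. None of the 7 genes held TGTTCT, a part of the glucocorticoid response element found in 19.0% of windows. The cyclic AMP response element TGACGTCA (1.79% of windows) and the forkhead motif TGTTTAC (3.65% of windows) were likewise without a match. So was the C/EBP motif TTGCGCAA (0.183% of windows). The windows of Tat, Got1 and Prodh held none of the 7 motifs. A match is a run of letters and not a shown binding site, and a missing match says only that the letters are not in this window.

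Dex increased 5 of the 9 enzymes in water mice and the same 5 in zinc mice, namely Tat, Tdo2, Sds, Got1 and Aass. Of all genes tested, 4.89% were called higher and 4.79% lower in water-Dex against water-PBS, and 5.0% higher and 4.68% lower in zinc-Dex against zinc-PBS. The median log2 fold change of the 9 enzymes was 1.08 in water mice and 1.26 in zinc mice, beside -0.01 over all genes tested in each. EdgeR called the same 5 in both, and no enzyme was called lower by either tool. By the adjusted p alone, which 21.6% of genes passed in water mice and 20.1% in zinc mice, Hal was also lower in water mice and Hpd higher in zinc mice. Gls2 and Prodh passed in neither.

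**Figure D1:**
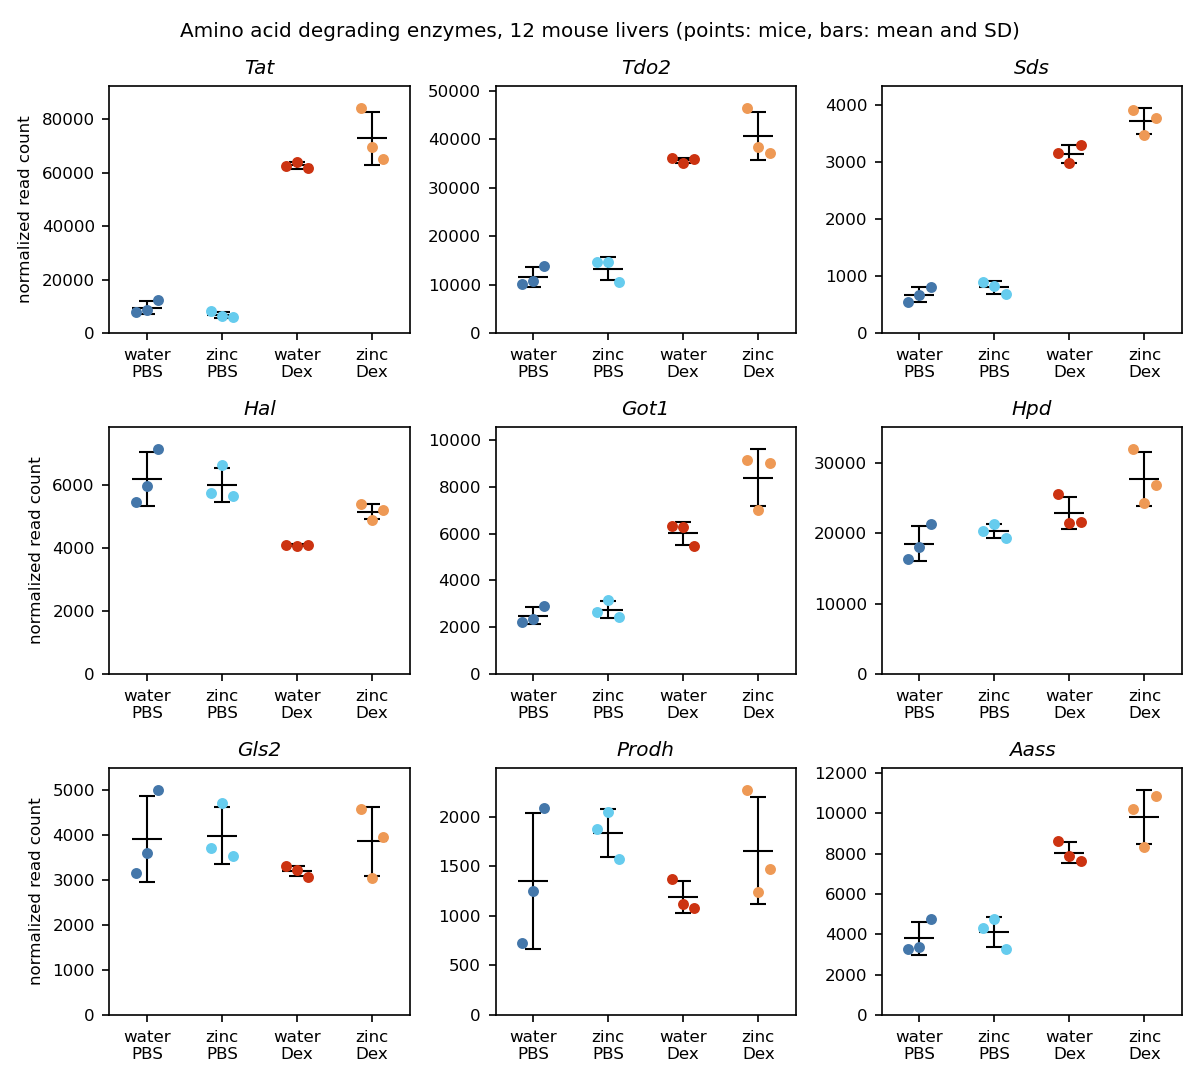
Normalized read counts (vertical axes, each from 0) of the 9 enzymes in the 4 groups, with a point for each mouse and bars for the mean and SD of 3 mice. For Tat, Tdo2, Sds, Got1, Aass and, only just, Hpd every Dex liver lies above every PBS liver. For Hal every Dex liver lies below, and Gls2 and Prodh overlap. The share of all genes with ranges apart is not given, here or below.

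Tat encodes tyrosine aminotransferase, which takes the amino group from tyrosine at the start of its breakdown. The gene lies at chr8:109990437-109999803 on the plus strand (mm10). In water-PBS mice Tat had 7871, 8446 and 12189 normalized counts, and in zinc-PBS mice 8189, 6380 and 6174. In water-Dex mice it had 62605, 64082 and 61567, and in zinc-Dex mice 84028, 69702 and 65078. All 6 Dex livers thus stood far above all 6 PBS livers. No zinc-Dex liver fell below a water-Dex liver, although that difference was not called (DESeq2 adjusted p = 0.751). Tat was 6.60-fold higher in water-Dex than in water-PBS mice, a log2 fold change of 2.72 (SE 0.160, DESeq2 adjusted p = 3.5e-62). In zinc mice the increase was 10.5-fold, or 3.40 on the log2 scale (SE 0.160, DESeq2 adjusted p = 5.7e-97). It was the largest increase among the 9 enzymes in both.

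Hpd encodes 4-hydroxyphenylpyruvate dioxygenase, which acts on the product of Tat (chr5:123171807-123182727, minus strand). It had 16311, 17964 and 21267 normalized counts in water-PBS and 20286, 21332 and 19342 in zinc-PBS mice. With Dex the water mice had 25502, 21491 and 21612 and the zinc mice 31857, 24281 and 26862. The lowest Dex liver was only just above the highest PBS liver. The log2 fold change was 0.30 in water mice (DESeq2 adjusted p = 0.0596) and 0.45 in zinc mice (SE 0.123, DESeq2 adjusted p = 0.00271), so both were below the fold threshold. The adjusted p in zinc mice stayed below 0.05 in 18 of 18 refits with other settings or 1 library left out, and that in water mice was below it in 3 of 18.

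Tdo2 encodes tryptophan 2,3-dioxygenase, the first and rate-limiting enzyme of the kynurenine route in liver (chr3:81957090-81976202, minus strand). Its normalized counts were 10069, 10806 and 13809 in water-PBS and 14589, 14615 and 10482 in zinc-PBS mice. After Dex they were 36081, 35077 and 35784 in water mice and 46308, 38377 and 37083 in zinc mice. The ranges with and without Dex were wide apart, and the water-Dex livers lay close together (35647 ± 516, SD, n = 3). Tdo2 increased 3.08-fold in water mice (log2 fold change 1.62, SE 0.146, DESeq2 adjusted p = 1.0e-26) and 3.07-fold in zinc mice (1.62 on the log2 scale, DESeq2 adjusted p = 1.7e-26).

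Sds encodes serine dehydratase, which turns serine into pyruvate and ammonia (chr5:120476526-120483932, plus strand). Its normalized counts were 540, 664 and 809 in water-PBS and 904, 825 and 679 in zinc-PBS mice, and with Dex 3160, 2986 and 3297 in water mice and 3915, 3482 and 3776 in zinc mice. Every Dex liver was thus above every PBS liver by a wide margin. The increase was 4.69-fold in water mice (log2 2.23, SE 0.138, DESeq2 adjusted p = 1.7e-56) and 4.64-fold in zinc mice (log2 2.21, DESeq2 adjusted p = 9.5e-57). The exons of Sds overlap those of Gm15690 and Plbd2 on the other strand over 501 of 1694 bases. The strand setting of the counting was not given in the sources used here, so reads of that stretch may belong to either gene.

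Got1 encodes the cytosolic aspartate aminotransferase, which links aspartate and glutamate (chr19:43499752-43524605, minus strand). It had 2204, 2368 and 2913 normalized counts in water-PBS and 2673, 3169 and 2433 in zinc-PBS mice. After Dex it had 6321, 6285 and 5458 in water mice and 9141, 7010 and 9043 in zinc mice. The Dex livers did not overlap the PBS livers, and the 3 zinc-Dex livers did not overlap the 3 water-Dex livers. For zinc-Dex against water-Dex the adjusted p was 0.0452 in DESeq2 and 0.154 in edgeR. Got1 increased 2.41-fold in water mice (log2 1.27, SE 0.140, DESeq2 adjusted p = 5.1e-18) and 3.04-fold in zinc mice (log2 1.61, SE 0.139, DESeq2 adjusted p = 1.1e-28).

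Aass encodes the aminoadipate semialdehyde synthase that starts the main breakdown of lysine in mitochondria (chr6:23072173-23132986, minus strand). Its normalized counts were 3267, 3372 and 4755 in water-PBS and 4314, 4749 and 3271 in zinc-PBS mice. With Dex they were 8609, 7905 and 7619 in water mice and 10224, 8345 and 10880 in zinc mice. The highest PBS liver was well below the lowest Dex liver. Aass increased 2.12-fold in water mice (log2 1.08, SE 0.163, DESeq2 adjusted p = 8.7e-10) and 2.39-fold in zinc mice (log2 1.26, SE 0.163, DESeq2 adjusted p = 5.0e-13).

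Hal encodes histidine ammonia-lyase, which opens the histidine route (chr10:93488768-93519304, plus strand). It had 5464, 5981 and 7144 normalized counts in water-PBS and 5755, 6638 and 5666 in zinc-PBS mice, and with Dex 4115, 4084 and 4116 in water mice and 5395, 4897 and 5215 in zinc mice. All 6 Dex livers lay below all 6 PBS livers. The water-Dex livers lay below the zinc-Dex livers, although that difference was not called (DESeq2 adjusted p = 0.0781). In water mice Hal had a log2 fold change of -0.59 (95% interval -0.80 to -0.39, DESeq2 adjusted p = 1.8e-07), short of the fold threshold, and its adjusted p was below 0.05 in 18 of 18 refits. In zinc mice it was -0.22 (95% interval -0.42 to -0.02, DESeq2 adjusted p = 0.126).

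Gls2 encodes the liver-type glutaminase, which releases ammonia from glutamine (chr10:128194457-128210004, plus strand). It had 3164, 3609 and 4994 normalized counts in water-PBS, 3715, 4715 and 3533 in zinc-PBS mice. With Dex it had 3310, 3230 and 3074 in water mice and 4575, 3040 and 3968 in zinc mice. The Dex livers overlapped the PBS livers both in water mice and in zinc mice, although all water-Dex livers lay below all zinc-PBS livers. The log2 fold change with Dex was -0.29 in water mice (95% interval -0.64 to 0.05, DESeq2 adjusted p = 0.258) and -0.05 in zinc mice (95% interval -0.39 to 0.30, DESeq2 adjusted p = 0.907). Its exons overlap those of Spryd4 on the other strand over 97 bases.

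Prodh encodes proline dehydrogenase, the first enzyme of proline breakdown (chr16:18060357-18090203, minus strand). It had 728, 1250 and 2088 normalized counts in water-PBS, 1876, 2051 and 1575 in zinc-PBS mice. With Dex it had 1377, 1122 and 1076 in water mice and 2266, 1236 and 1477 in zinc mice. The Dex livers overlapped the PBS livers both in water mice and in zinc mice, although all water-Dex livers lay below all zinc-PBS livers. The water-PBS livers alone spanned more than any group mean differed from another. The log2 fold change with Dex was -0.19 in water mice (95% interval -0.91 to 0.54, DESeq2 adjusted p = 0.795) and -0.14 in zinc mice (95% interval -0.86 to 0.58, DESeq2 adjusted p = 0.858). Both intervals reach past the fold threshold on the lower side. In water mice the value was -0.49 without water-PBS replicate 1 and 0.27 without water-PBS replicate 3, and it was not called in either.

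**Figure D2:**
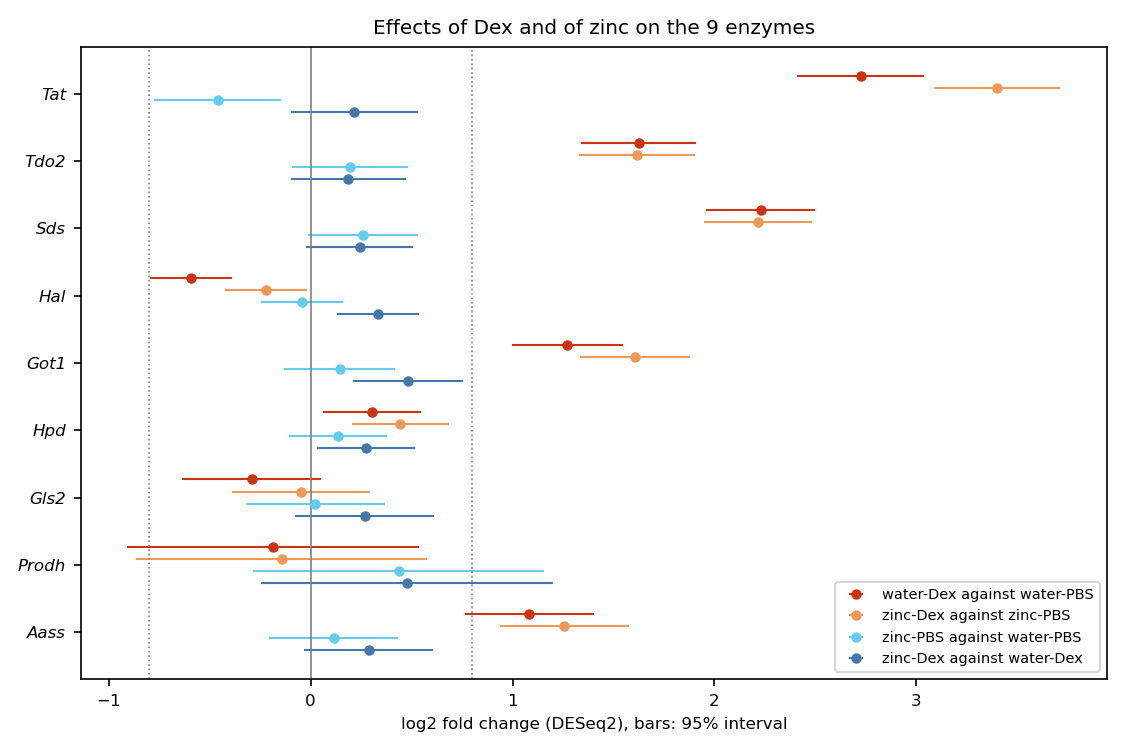
Log2 fold changes from DESeq2 (horizontal axis, bars for the 95% interval) of the 9 enzymes in 4 comparisons, with dotted lines at the fold threshold of 0.8 in both directions. The Dex effects of Tat, Sds, Tdo2, Got1 and Aass lie beyond the right line, whereas the point values of the zinc effects of all 9 lie between the lines.

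Zinc alone called none of the 9 enzymes. DESeq2 called 0 of 9 in zinc-PBS against water-PBS, where it called 0.138% of all genes, and edgeR called 0. An unadjusted p below 0.05 was held by 1 of the 9, and by 790 of the 26191 genes with a count. The enzyme was Tat, at -0.46 on the log2 scale (DESeq2 adjusted p = 0.352). Leaving out zinc-PBS replicate 1 moved Tat to -0.60, and leaving out water-PBS replicate 3 moved it to -0.24. These were the extremes over the refits, and Tat was called in none of them. The other 8 lay between -0.04 and 0.44 on the log2 scale with adjusted p-values of at least 0.900 by DESeq2. Outside Prodh, the 95% intervals reached from -0.77 to 0.53, so that effects beyond the fold threshold lay outside them. The interval of Prodh reached 1.16. The median log2 fold change of the 9 was 0.13 beside 0.00 over all genes.

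In Dex-treated mice zinc also led to 0 calls among the 9 by DESeq2 and 0 by edgeR, with 0.469% of all genes called in zinc-Dex against water-Dex. All 9 values were above 0, from 0.19 to 0.48 on the log2 scale, with a median of 0.27 beside 0.00 over all genes. Among 61 further enzymes of amino acid breakdown, described below, 50 were above 0, with a median of 0.13. The 9 values come from the same livers, and zinc-Dex replicate 1 was the highest of its group in 8 of the 9. Of the 9, 3 had an unadjusted p below 0.05, as did 1375 of the 26191 genes with a count. Got1 passed the adjusted p (log2 0.48, DESeq2 adjusted p = 0.0452), as did 1.35% of all genes, but not the fold threshold. Its adjusted p was between 0.00245 and 0.320 over 18 refits and below 0.05 in 7 of them. With the replicate number as a block it was 0.0816. The next was Hal at 0.33 (DESeq2 adjusted p = 0.0781).

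The difference between the Dex effects of zinc and water mice was tested as an interaction. DESeq2 called 0 of the 9 enzymes (0.0191% of all genes were called), and edgeR called 0. An unadjusted p below 0.05 was held by 2 of the 9, and by 522 of the 26191 genes with a count. The 2 were Tat, whose Dex effect was larger in zinc mice by 0.68 on the log2 scale (SE 0.226, DESeq2 adjusted p = 0.999), and Hal, whose value was 0.37 (DESeq2 adjusted p = 0.999). The remaining 7 lay between -0.02 and 0.34. Leaving out water-PBS replicate 3 lowered the Tat interaction to 0.46, and leaving out zinc-PBS replicate 1 raised it to 0.82, past the fold threshold. In none of 17 refits was its adjusted p below 0.05. The interaction of Prodh had the widest 95% interval, from -0.98 to 1.06, which reaches past the fold threshold on both sides.

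Mice given both agents were also compared with untreated mice, a comparison that shares its control livers with water-Dex against water-PBS. Dex and zinc together increased Tat by 2.94, Sds by 2.47, Tdo2 by 1.81, Got1 by 1.75 and Aass by 1.37 on the log2 scale, which is 5 of 9 beside 5.59% of all genes called higher. Hpd was higher by 0.58 on the log2 scale (DESeq2 adjusted p = 3.3e-05), below the fold threshold. Hal was at -0.26 (DESeq2 adjusted p = 0.0473), and this adjusted p was below 0.05 in 3 of 18 refits. Gls2 was at -0.02 and Prodh at 0.29.

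The other genes of amino acid breakdown were counted in the same way. A list of 63 further enzymes covered the routes of tyrosine, tryptophan, serine and glycine, histidine, glutamine and proline, lysine, the branched-chain amino acids, ornithine and D-amino acids. Of these, 61 were tested, and Tdh and Dao had no counts. In water mice Dex called 2 higher and 1 lower, and in zinc mice 3 higher and 1 lower. Over all genes, 4.89% were called higher and 4.79% lower in water mice, and 5.0% and 4.68% in zinc mice. The median log2 fold change of the list was -0.02 in water mice and 0.10 in zinc mice. By the adjusted p alone, 4 were higher (Gpt2, Sdsl, Acmsd and Aldh6a1) and 9 lower (Bcat2, Bckdk, Ddo, Aspg, Amt, Shmt1, Amdhd1, Gldc and Dhtkd1) in water mice, beside 11.7% and 9.91% of all genes. In zinc mice 8 were higher and 4 lower (Bcat2, Ddo, Amt and Gcsh), beside 11.0% and 9.08% of all genes. In zinc-Dex against water-PBS 2 were called higher (Gpt2 and Sdsl) and 1 lower (Bcat2). Zinc led to 0 calls in PBS mice, 0 in Dex mice and 0 in the interaction by DESeq2 and by edgeR. An unadjusted p below 0.05 was held by 2, 13 and 2 of the 61. Of the 26191 genes with a count, 790, 1375 and 522 had one.

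Gpt2, the mitochondrial alanine aminotransferase, increased by 1.29 on the log2 scale in water mice (DESeq2 adjusted p = 3.9e-17) and by 1.23 in zinc mice. Its normalized counts were 2762 to 4416 in water-PBS and 8285 to 8641 in water-Dex livers. Sdsl, a serine dehydratase-like enzyme that neighbours Sds on chromosome 5, increased by 1.16 in water mice (DESeq2 adjusted p = 6.5e-11) and by 1.07 in zinc mice, from a low level of 78.8 to 86.8 normalized counts in water-PBS livers. Acmsd, which steers the kynurenine route away from NAD synthesis, was at 0.62 in water mice (DESeq2 adjusted p = 0.0021), short of the fold threshold, and increased by 0.92 in zinc mice (DESeq2 adjusted p = 1.1e-06). Bcat2, the mitochondrial branched-chain aminotransferase, decreased by 1.06 in water mice (DESeq2 adjusted p = 8.3e-06) and by 1.04 in zinc mice. It had 174 to 227 normalized counts in water-PBS and 79.2 to 112 in water-Dex livers. The exons of Bcat2 overlap an antisense gene over 622 bases and those of Acmsd over 94 bases.

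The routes were then read in the order of their reactions, a grouping made after the values were seen. In the tyrosine route, the log2 fold change with Dex in water mice was 2.72 for Tat, 0.30 for Hpd, 0.25 for Hgd, 0.03 for Gstz1 and 0.08 for Fah. Tat alone of these 5 was called. In the tryptophan route it was 1.62 for Tdo2, -0.27 for Afmid, 0.14 for Kmo, -0.17 for Kynu, -0.02 for Haao and 0.62 for Acmsd, with Tdo2 alone called in water mice and Tdo2 and Acmsd in zinc mice. In the lysine route it was 1.08 for Aass, 0.01 for Aldh7a1, -0.12 for Aadat, -0.34 for Dhtkd1 and -0.01 for Gcdh, and Aass alone was called. In these 3 routes the called enzymes thus stood at or near the entry, apart from Acmsd at a branch point. This did not hold for every route. Hal, Gls2 and Prodh, first in the histidine, glutamine and proline routes read here, were not called. The branched-chain aminotransferase Bcat2 was called lower. In the histidine route, with no call, all 4 values were below 0 in water mice: -0.59 for Hal, -0.10 for Uroc1, -0.37 for Amdhd1 (DESeq2 adjusted p = 0.0021) and -0.23 for Ftcd. Glud1, after Gls2, was at 0.10 and Aldh4a1, after Prodh, at -0.09.

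**Figure D3:**
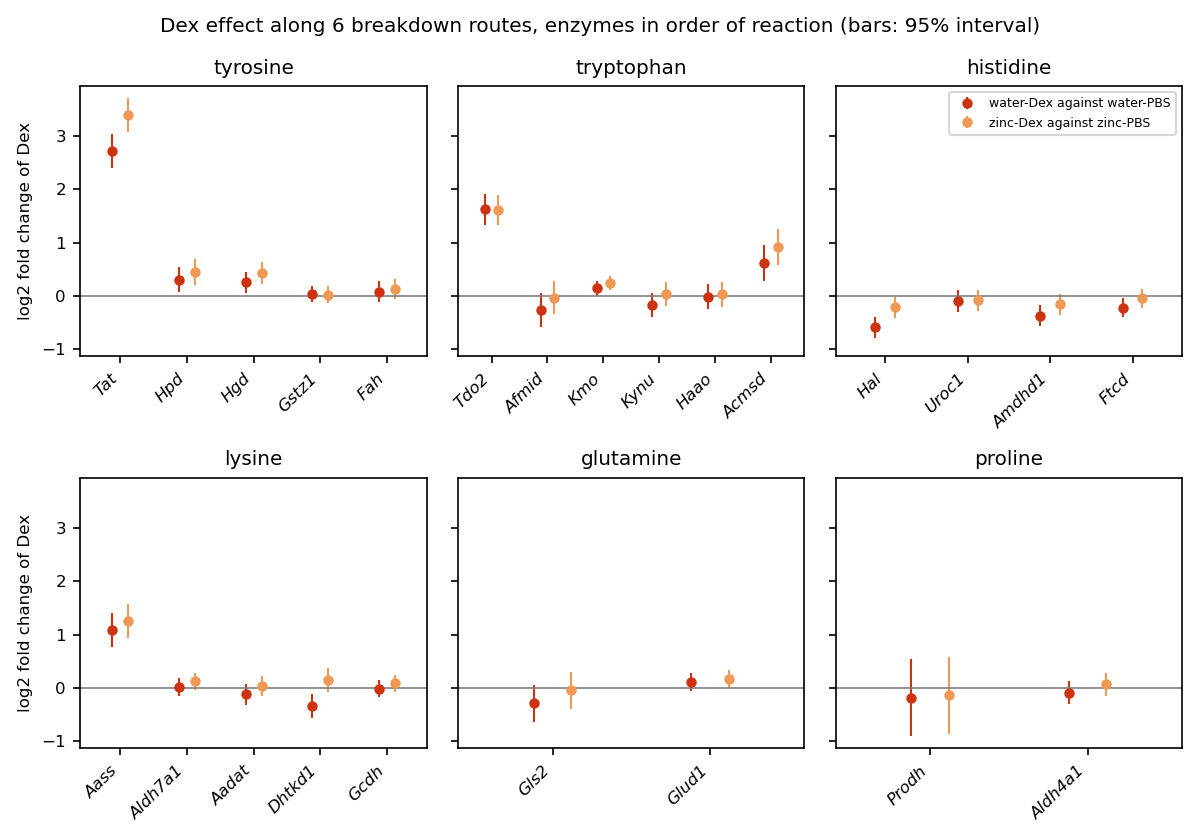
Log2 fold change with Dex (vertical axis, bars for the 95% interval) of the enzymes of 6 breakdown routes in order of reaction, in water mice and in zinc mice. Tat, Tdo2 and Aass stand above the other enzymes of their routes, whose values in water mice lie between -0.34 and 0.62.

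Zinc in Dex mice moved 2 of the 61 other enzymes past the adjusted p of DESeq2, both below the fold threshold, beside 1.35% of all genes. Dhtkd1, which acts late in lysine breakdown, had 374 to 398 normalized counts in water-Dex and 568 to 585 in zinc-Dex livers, a log2 difference of 0.60 (DESeq2 adjusted p = 0.00029). Hoga1, an enzyme of hydroxyproline breakdown, was at 0.39 (DESeq2 adjusted p = 0.0402). In edgeR the adjusted p was 0.0335 for Dhtkd1 and 0.123 for Hoga1.

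Several of these reactions are shared by a pair of related enzymes, and pairs chosen after the values were seen are described here within each liver, with no test. The ratio of normalized counts per exonic length was taken on the log2 scale, and 6 Dex livers were set against 6 PBS livers with water and zinc mice together. The ratio of cytosolic Got1 to mitochondrial Got2 ran from 1.13 to 1.64 in PBS livers and from 2.45 to 3.08 in Dex livers, a difference of 1.35 (1.22 within water mice and 1.49 within zinc mice). That of mitochondrial Gpt2 to cytosolic Gpt ran from -0.17 to 0.25 and from 0.85 to 1.28, a difference of 1.12 (1.22 and 1.02). That of Sds to Sdsl ran from 2.60 to 3.50 and from 3.87 to 4.48, a difference of 1.12 (1.10 and 1.14). These 3 ratios did not overlap between Dex and PBS livers, and each holds a gene already called with Dex.

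For the aspartate and the alanine aminotransferases, the ratio in Dex livers lay toward the cytosolic form in one and toward the mitochondrial form in the other. Got2 was at 0.06 and Gpt at 0.07 on the log2 scale in water mice, neither past the test. Sds and Sdsl were both called higher. The ratio of Prodh to the hydroxyproline dehydrogenase Prodh2 differed by 0.04, and the livers overlapped.

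**Figure D4:**
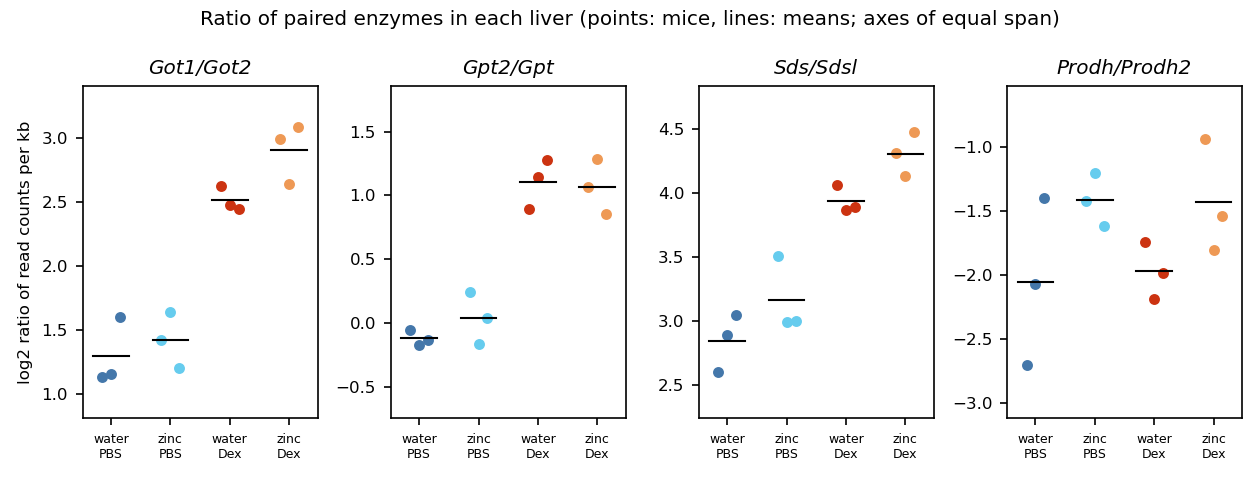
Log2 ratio of normalized counts per exonic length (vertical axes, each over the same span) of 4 pairs of related enzymes, with a point for each mouse and a line for the group mean. The ratios Got1/Got2, Gpt2/Gpt and Sds/Sdsl are higher in all Dex livers, and Prodh/Prodh2 overlaps.

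Per kilobase of exon, the order of the levels also differed with Dex. In water-PBS livers the mean was 8700 normalized counts per kilobase for Hpd, 3951 for Tat, 2979 for Tdo2, 1129 for Gls2, 1117 for Hal, 995 for Aass, 983 for Got1, 396 for Sds and 174 for Prodh. Hpd was thus the most abundant, and Gls2, Hal, Aass and Got1 were close together. In water-Dex livers it was 26092 for Tat, 10746 for Hpd, 9185 for Tdo2, 2371 for Got1, 2107 for Aass, 1858 for Sds, 922 for Gls2, 740 for Hal and 153 for Prodh. Tat passed Hpd, and Sds passed Gls2 and Hal. The length is the union of all annotated exons, which for Prodh is 7797 bases against 2386 in its principal transcript. Over the principal transcript the mean of Prodh in water-PBS livers was 568 normalized counts per kilobase, above 521 for Sds. In water-Dex livers Sds, at 2444, then stood above Aass, at 2174. Parts of the order thus depend on the length used. With this length too, Tat passed Hpd, and Sds passed Gls2 and Hal.

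The genes with the pattern nearest to each enzyme over the 12 livers were found by the root mean square difference of centred log2 levels among the 9574 genes whose mean reached 50 normalized counts. The nearest to Tat was Plin5 (0.248), a lipid droplet protein, and the nearest to Tdo2 was Aff1 (0.123). Narf was nearest to Sds (0.153), Sec14l4 to Got1 (0.159) and Sult1d1, a sulfotransferase, to Aass (0.132). Got1 and Aass were the nearest to each other among the 9 enzymes (0.166). Outside the rule, and seen only afterwards, Hpd was nearest to Hgd, the next enzyme of its route, at 0.0599, and Amdhd1 of the histidine route was second nearest to Hal at 0.0998. All of these are descriptions over livers that share the same treatments.

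The enzymes also varied between mice of the same group. The within-group SD of the log2 level was 0.462 for Prodh, at the 98.4th percentile of 9574 genes, and 0.253 for Gls2, 0.233 for Aass, 0.225 for Tat, 0.202 for Tdo2, 0.189 for Got1, 0.188 for Sds, 0.159 for Hpd and 0.122 for Hal, beside a median of 0.140 over genes. All but Hal were thus above the median. The deviations were shared: water-PBS replicate 3 was the highest of its group in 9 of 9 enzymes and water-PBS replicate 1 the lowest in 9. Zinc-PBS replicate 3 was the lowest of its group in 9, and zinc-Dex replicate 1 the highest in 8. Among the 63 other enzymes water-PBS replicate 3 was highest in 43, and zinc-Dex replicate 1 was counted as highest in 46. The 46 includes Tdh and Dao, which had no counts and fell to replicate 1 as ties. Over the 9574 genes the shares were 35.5% and 36.5%. The median log2 difference of water-PBS replicate 3 from the other livers of its group was 0.43 over the 9 enzymes. It was -0.01 over the 9574 genes. These counts were made after the values were seen. Leaving out either library kept the 5 calls of each Dex comparison.

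**Figure D5:**
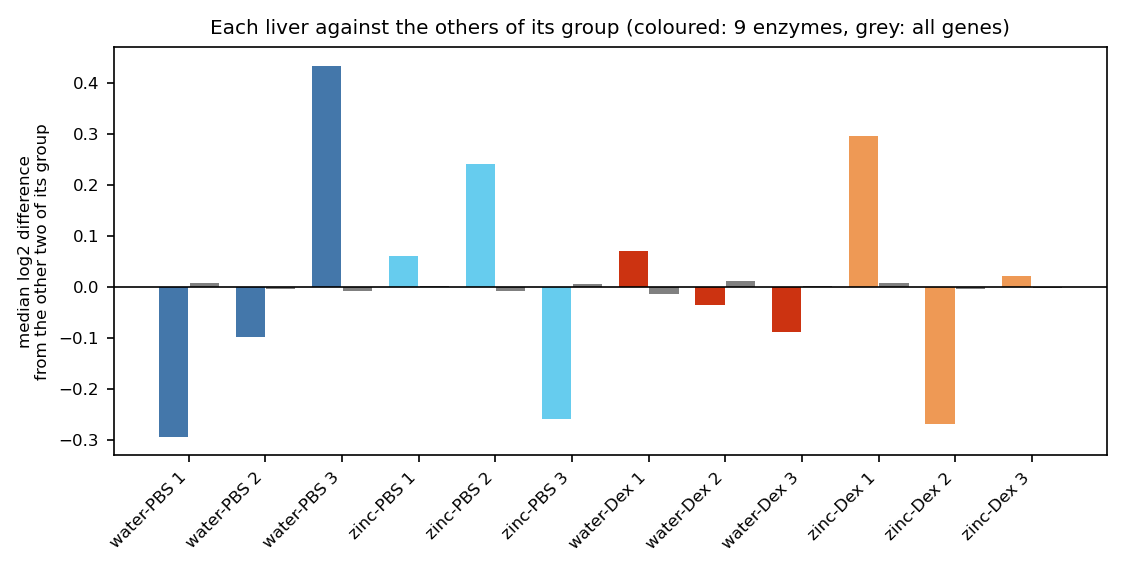
Median log2 difference (vertical axis) of each liver from the other livers of its group, over the 9 enzymes (coloured bars). Grey bars cover the 9574 genes whose mean reached 50 normalized counts. Water-PBS replicate 3 stands 0.43 above its group for the enzymes and zinc-Dex replicate 1 0.30 above, whereas the grey bars stay near 0.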

How the data were processed

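Liver RNA of 12 mice was sequenced as stranded single-end libraries. The authors mapped the reads to mm10 with hisat v2.0.4, counted reads per gene with featureCounts without multimapping reads, and deposited raw counts. Symbols, coordinates and exonic lengths came from GENCODE M21 (GRCm38). The strand setting was not given in the sources used here.

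Counts of 54838 genes in 12 libraries (9091152 to 12303527 reads) were fitted in DESeq2 1.42.0 (R 4.3.3) with 1 term per group and Wald tests, and called at a Benjamini-Hochberg adjusted p below 0.05 and a log2 fold change beyond 0.8, the thresholds of the study. The analysis was tested on simulated data. With 3 against 3 livers an exact permutation test cannot go below 0.1, so comparisons rest on the fit across genes. Intervals assume the spread of that fit.

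Named genes were all 9 enzymes, other enzymes called in at least 1 comparison, and the nearest gene of each enzyme called in both Dex comparisons. Promoters were printed for the last. Other genes, such as uncalled enzymes of the routes, those past only the adjusted p and called markers, were named after their values were seen. Some results are not reported here. The enzymes and lists were chosen with earlier results of these data known. Alternatives were edgeR 4.0.16, TMM factors, a filter of 10 counts in at least 3 libraries, a replicate block, no independent filtering, only the libraries compared, leaving out each library, and no fold threshold.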

Additional observations from a re-analysis of the deposited data

How the results depend on the processing

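The calls of the 9 enzymes were unchanged under every setting tried except dropping the fold threshold. This held with edgeR, TMM factors, the low-count filter, no independent filtering, only the libraries compared, and each library left out. In all of these, 5 were called in each of the 3 comparisons of Dex groups with PBS groups and 0 in the other 3. The interaction was not refitted with only the libraries compared, so in that setting the 0 covers the zinc comparisons alone. Of 1017 alternative values for 54 results on single enzymes, 1012 kept their side of the threshold and, where called, their direction, and 5 passed only because the fold threshold was dropped. Without the fold threshold, 1 enzyme passed in zinc-Dex against water-Dex, and of the other enzymes of amino acid breakdown 13 passed in water-Dex against water-PBS, 12 in zinc-Dex against zinc-PBS, 2 in zinc-Dex against water-Dex and 16 in zinc-Dex against water-PBS. Leaving out 1 library gave 3 to 4 calls of those enzymes in both comparisons within a drinking water.

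Over 9574 genes, the deviations of same-numbered mice of different groups were weakly correlated (r from -0.204 to 0.191 over 18 pairs, 1 of them above 0.1). The samples were treated as unpaired, although these correlations cannot exclude a pairing that touches few genes. The replicate block gave 5, 5 and 5 calls of the 9 enzymes in the Dex comparisons and 0 in the others. TMM factors moved the median of all genes by -0.00553 to 0.00521 on the log2 scale. Groups of 3 leave differences as small as those of Gls2 and Prodh poorly resolved.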
